A study of Mus musculus with 49 samples.

Results

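The 10 genes described here serve lipid efflux and lipoproteins in the brain. They are the apolipoprotein genes Apoe, Apoc1 and Clu, the sterol transporter genes Abca1 and Abcg1, the lipase gene Lpl, the sterol-modifying enzyme genes Ch25h and Soat1, and Nr1h2 and Nr1h3, which encode the liver X receptors. They were taken by symbol from a count table of 45252 genes in the neocortex of 49 mice, and all 10 were among the 18220 genes with enough counts to be tested. The study asked whether vaccination against peptides of TDP-43 changes the disease of rNLS8 mice, which express human TDP-43 lacking the nuclear localization signal. Every mouse carried the tetO-hTDP43∆NLS allele on a mixed C57BL/6J and C3H/HeJ background. The 32 bigenic mice also carried NEFH-tTa, which drives the transgene from a neuronal promoter when doxycycline is absent, and the 17 monogenic littermates did not carry it. The monogenic mice received PBS (ctrl-PBS, 10 females and 7 males). Of the bigenic mice, 10 received PBS (TDP-PBS, 4 females and 6 males), 10 received peptides 10 and 12 of TDP-43 (TDP-10+12, 6 females and 4 males), and 12 received peptide 15, which holds a phosphorylated epitope (TDP-15, 5 females and 7 males). The peptides were conjugated to ovalbumin, and the PBS groups received PBS in place of the conjugates, so the immunized groups differ from TDP-PBS in the carrier as well as in the peptide. Injections began at 8 weeks of age, with 5 before and 1 after induction. Each held 40 µg of peptide conjugate, or PBS in its place. The regimen also used a CpG oligonucleotide and the adjuvant Alhydrogel, according to the study. Doxycycline was removed at 25.5 weeks and the mice were sacrificed at 28.5 weeks, 3 weeks after induction. There was 1 library per mouse, and the labels name no batch.

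In the brain, lipids travel between cells on particles that are built mainly around apolipoprotein E and clusterin, which astrocytes secrete and microglia can also make. The transporter ABCA1 loads cholesterol and phospholipid onto lipid-poor apolipoproteins, and ABCG1 passes sterol on to particles that already carry lipid. The liver X receptors are nuclear receptors that bind oxysterols. With a retinoid X receptor they raise transcription of genes such as Abca1, Abcg1, Apoe and Srebf1. Sterol that is not exported can be esterified by SOAT1 for storage in droplets, or hydroxylated by CH25H in myeloid cells to 25-hydroxycholesterol.

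Libraries held 17775738 to 21033608 counts per mouse, so that 3 counts correspond to 0.139 to 0.165 CPM (counts scaled to the library size and TMM factor of each mouse). This floor covers counting error only. In every bigenic mouse the summed CPM of 6 neuron markers was below all ctrl-PBS mice, at 4432 to 5532 in TDP-PBS against 5919 to 7638, and 3 of the 6 (Snap25, Syt1 and Gad1) fell in each bigenic group while Rbfox3, Slc17a7 and Gad2 did not pass the test. The sum of 7 microglia markers (Csf1r, Cx3cr1 and Tmem119 among them) ran from 220 to 258 CPM in ctrl-PBS, 265 to 363 in TDP-PBS, 229 to 354 in TDP-10+12 and 234 to 419 in TDP-15. It lay above every ctrl-PBS mouse in 10 of 10, 9 of 10 and 11 of 12 mice. Of these 7 genes, 5 rose in each bigenic group, with 0 lower in TDP-PBS and 1 lower in each immunized group, and none was at 0. The lower gene was P2ry12, at a log2 fold change of -0.18 in TDP-10+12 (adjusted p = 0.013) and -0.15 in TDP-15 (adjusted p = 0.026). Aif1 did not pass the test in any bigenic group. The 7 astrocyte markers summed to 2144 to 2790 CPM in ctrl-PBS, 1883 to 2684 in TDP-PBS, 1972 to 3152 in TDP-10+12 and 1942 to 2856 in TDP-15, where 6 of 12 mice lay below all ctrl-PBS mice. They moved apart in TDP-PBS, with Gfap (log2 fold change 1.64, adjusted p = 9.88e-11) and Gjb6 (0.24, adjusted p = 0.041) higher and Slc1a2 (-0.35, adjusted p = 7.01e-05) and Gja1 (-0.29, adjusted p = 0.0028) lower. Of the 7, 1 rose and 2 fell in TDP-10+12, and 1 rose and 3 fell in TDP-15. The sum of 5 choroid plexus markers, Ttr among them, was uneven, at 12.7 to 366 CPM in ctrl-PBS but over 1000 CPM in 4 bigenic mice. These were mouse 26 of TDP-PBS (1274), mice 200 (1075) and 51 (1687) of TDP-10+12, and mouse 243 of TDP-15 (1543). Of the 5 choroid plexus markers, 0 rose in TDP-PBS, 4 in TDP-10+12 and 1 in TDP-15, and 0 fell. Beside these marker counts, 20.8% to 23.6% of all tested genes rose and 20% to 23.2% fell in the bigenic groups. In bulk tissue, fewer cells of a type and less RNA per cell cannot be told apart, and the part of these cell types in the results below was not tested.

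Between genes, levels were compared as mean CPM per kilobase of merged exons (GENCODE M21) in the 17 ctrl-PBS mice. Apoe was the highest at 440 and Clu followed at 240. Nr1h2 stood at 20.4, Abcg1 at 10.2 and Abca1 at 2.60, and each of these first 4 genes exceeded the next in all 49 mice. Lpl (1.59), Soat1 (1.29) and Nr1h3 (1.21) lay close together. Lpl exceeded Soat1 in 13 of 17 ctrl-PBS mice and Soat1 exceeded Nr1h3 in 11 of 17, so these neighbours did not separate mouse by mouse. Apoc1 (0.468) and Ch25h (0.264) were the lowest, and Apoc1 exceeded Ch25h in 12 of 17 mice.

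In TDP-PBS, 6 of the 10 genes rose against ctrl-PBS and 0 fell, where 43.5% of all 18220 tested genes changed (21.9% rose and 21.6% fell). The 6 genes were Ch25h, Apoc1, Abca1, Soat1, Clu and Apoe. In TDP-10+12, 5 rose, which were these genes without Apoe, and 40.8% of all genes changed (20.8% higher, 20% lower). In TDP-15, 4 rose, namely Apoc1, Ch25h, Abca1 and Clu, and 46.9% of all genes changed (23.6% higher, 23.2% lower). The median log2 fold change of the 10 genes was 0.18, 0.14 and 0.084 in the 3 groups, and that of all tested genes was -0.00039, 0.0031 and -0.0015. The 3 comparisons share the ctrl-PBS mice. TDP-10+12 and TDP-15 differ from ctrl-PBS in peptide and carrier as well as in genotype. No immunized monogenic mice were among those analysed here, so genotype and immunization cannot be told apart in TDP-10+12 or TDP-15 against ctrl-PBS. Abcg1, Lpl, Nr1h2 and Nr1h3 passed the test in none of the 3 comparisons.

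**Figure D1:**
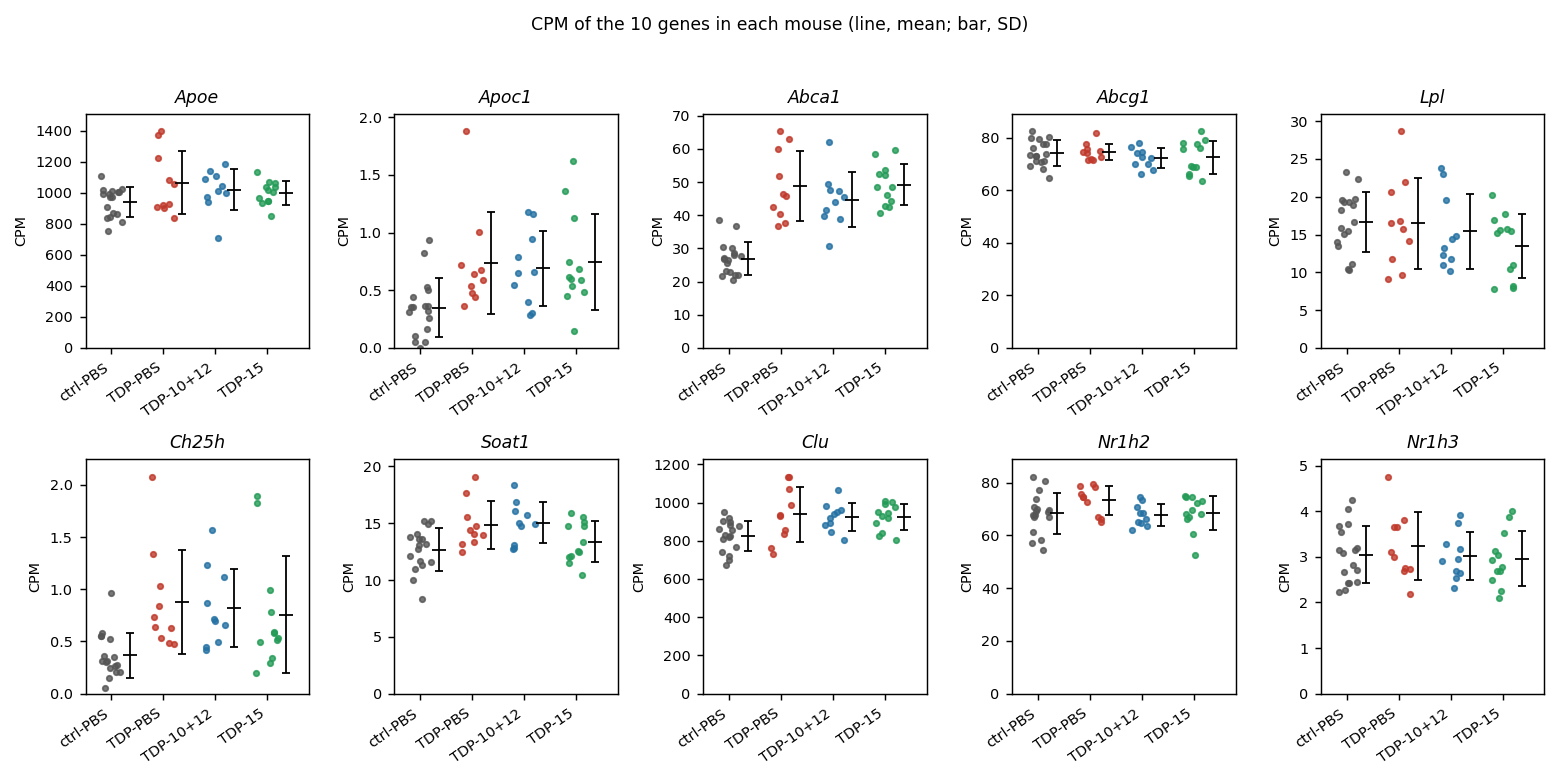
CPM of each gene (vertical axes from 0) in every mouse of the 4 groups, 1 point a mouse, with the group mean as a horizontal mark and the SD as a bar. The Abca1 points of all 12 TDP-15 mice lie above the highest ctrl-PBS mouse (38.6 CPM), and the Abcg1 points of the 4 groups overlap.

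Abca1 (chr4:53030789-53159988 of GRCm38.p6, minus strand) was the gene whose groups were most separate. Its level in ctrl-PBS ran from 20.4 to 38.6 CPM with a median of 26.8. In TDP-PBS it ran from 36.7 to 65.4 with a median of 46.0, in TDP-10+12 from 30.7 to 62.2 with a median of 44.7, and in TDP-15 from 40.7 to 59.7 with a median of 48.6. TDP-15 did not overlap with ctrl-PBS, and 8 of 10 TDP-PBS and 9 of 10 TDP-10+12 mice lay above the highest ctrl-PBS mouse. The log2 fold change was 0.86 ± 0.096 (SE) in TDP-PBS, or 1.82-fold with a 95% interval of 1.59 to 2.08 (adjusted p = 1.44e-10). It was 0.73 ± 0.096 in TDP-10+12 (adjusted p = 1.36e-08) and 0.87 ± 0.092 in TDP-15 (adjusted p = 2.37e-11). Leaving out any single mouse kept the change in TDP-PBS between 0.82 and 0.91.

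Its partner transporter Abcg1 (chr17:31057694-31117984, plus strand) averaged 74.3 ± 4.88 CPM (SD) for the 17 ctrl-PBS mice, 74.7 ± 3.15 for TDP-PBS, 72.3 ± 3.81 for TDP-10+12 and 72.7 ± 6.27 for TDP-15. All 4 groups overlapped throughout, and only 1 TDP-15 mouse exceeded the highest ctrl-PBS mouse. The log2 differences from ctrl-PBS were 0.0090, -0.039 and -0.031. The 95% interval in TDP-PBS, 0.953 to 1.06 as a fold change, was narrow beside that of Abca1. The log2 ratio of Abca1 to Abcg1 within each mouse averaged -1.48 ± 0.27 (SD) over ctrl-PBS and -0.64 ± 0.27 over TDP-PBS, a difference of 0.84 (two-sided permutation test, p = 1e-05, the smallest that 100000 resamples can give, adjusted p = 4e-05 over 12 ratio tests). The difference was 0.77 in TDP-10+12 and 0.91 in TDP-15 with the same p, and 12 of 12 TDP-15 mice had a ratio above every ctrl-PBS mouse.

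**Figure D2:**
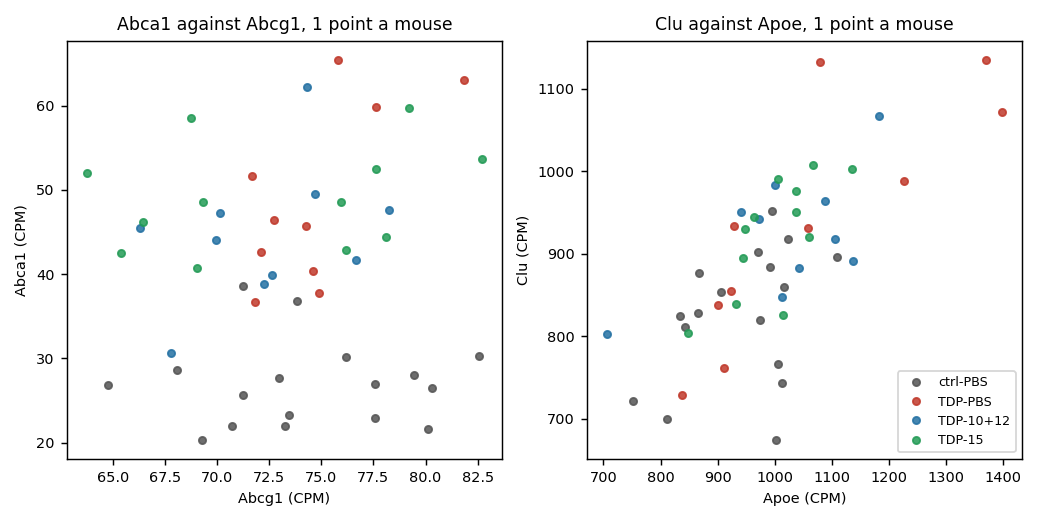
Left, Abca1 against Abcg1 in CPM, and right, Clu against Apoe in CPM, with 1 point for each of the 49 mice coloured by group; axes do not start at 0. On the left the groups separate along Abca1 and not along Abcg1, and on the right the bigenic mice reach higher values of both genes within the same cloud.

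The promoter of Abca1 was examined because the gene rose in each bigenic group. With no window listed for Abcg1, the promoters of Abca1 and Abcg1 could not be compared. RefSeq promoter windows of 300 bases, 250 before and 50 after the start, were listed for 6 of the 10 genes (9 windows), and none was listed for Apoc1, Abcg1, Lpl or Clu. Liver X receptors bind direct repeats, which were searched on both strands as GGTCA or GGTTA, any 5 bases, and again GGTCA or GGTTA. The Abca1 window, set on a start at position 53159895, held such a repeat 53 to 67 bases before that start, and the other 8 windows did not. The RefSeq span of the gene extends farther, to 53159988, so the repeat lies within that span. Of all 32851 windows, 70 (0.213%) held one. The letters were chosen with these sequences in view, and a match is a description and not a measured binding site. The stretch around it (chr4:53159896-53160022, minus strand) is printed with the half-sites in capitals, which read on the opposite strand.
Abca1 promoter: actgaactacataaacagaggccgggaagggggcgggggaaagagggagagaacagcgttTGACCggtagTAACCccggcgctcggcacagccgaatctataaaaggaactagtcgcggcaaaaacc

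Among the apolipoproteins, Apoe was abundant and changed little. Its level (chr7:19696244-19701310, minus strand) was 940 ± 96.0 CPM (SD, n = 17) in ctrl-PBS, with a lowest mouse at 751, a median of 975 and a highest at 1110. In TDP-PBS it ran from 839 to 1399 with a median of 994, in TDP-10+12 from 706 to 1183 with a median of 1028, and in TDP-15 from 848 to 1136 with a median of 1010. The groups overlapped over most of their range, with 3 TDP-PBS mice above the highest ctrl-PBS mouse. Apoe passed the test in TDP-PBS (log2 fold change 0.18 ± 0.070, adjusted p = 0.035) and not in TDP-10+12 (0.12, adjusted p = 0.19) or TDP-15 (0.089, adjusted p = 0.29). The call in TDP-PBS was lost without mouse 26 (0.14, adjusted p = 0.098), mouse 82 (0.13, adjusted p = 0.13) or mouse 124 (0.16, adjusted p = 0.061) of TDP-PBS, and without mouse 110 (0.17, adjusted p = 0.050) or 232 (0.16, adjusted p = 0.057) of ctrl-PBS. A two-sided permutation test on log2 CPM gave p = 0.051, and 2 of the other fits also lost the call. Without mouse 301 of TDP-10+12, the lowest of its group, Apoe passed in TDP-10+12 (0.18, adjusted p = 0.030). With the 4 mice high in choroid plexus markers left out, Apoe in TDP-PBS was at 0.13 (adjusted p = 0.13).

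Apoc1 (chr7:19689480-19692659, minus strand), which lies beside Apoe and encodes a small apolipoprotein of myeloid cells and lipoproteins, was at a far lower level than Apoe. Its counts ran from 0 to 18 in ctrl-PBS, and 5 of 17 mice had 3 counts or fewer. In CPM, ctrl-PBS ran from 0 to 0.937 with a median of 0.352, TDP-PBS from 0.366 to 1.88 with a median of 0.618, TDP-10+12 from 0.289 to 1.17 with a median of 0.654, and TDP-15 from 0.149 to 1.62 with a median of 0.605. The groups overlapped, and 29 of 32 bigenic mice lay above the ctrl-PBS median. The log2 fold change was 1.06 ± 0.34 in TDP-PBS (adjusted p = 0.0090), 0.98 ± 0.34 in TDP-10+12 (adjusted p = 0.017) and 1.09 ± 0.32 in TDP-15 (adjusted p = 0.0044). Mouse 26 was the highest of TDP-PBS for both Apoe and Apoc1, and without it Apoc1 in TDP-PBS was at 0.80 (adjusted p = 0.052). Without the 4 mice high in choroid plexus markers it was at 0.80 in TDP-PBS (adjusted p = 0.059), 0.87 in TDP-10+12 (adjusted p = 0.050) and 1.11 in TDP-15 (adjusted p = 0.0036). The log2 ratio of Apoc1 to Apoe was -11.3 ± 0.89 (SD, n = 17) in ctrl-PBS and was higher by 0.85 in TDP-PBS, 0.84 in TDP-10+12 and 0.91 in TDP-15 (permutation tests, adjusted p = 0.024, 0.029 and 0.018). At such low counts these differences depended on the prior count. Over the alternatives they ran from 0.583 to 1.16, from 0.585 to 1.13 and from 0.655 to 1.20. The ratio tests were not repeated without mouse 26 or the mice high in choroid plexus markers.

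Clu (chr14:65968483-65981548, plus strand), the gene of clusterin, rose slightly in all 3 bigenic groups. It ran from 675 to 952 CPM in ctrl-PBS with a median of 829, from 729 to 1135 in TDP-PBS with a median of 933, from 803 to 1067 in TDP-10+12 with a median of 930 and from 804 to 1008 in TDP-15 with a median of 938. The ranges overlapped, and 27 of 32 bigenic mice exceeded the ctrl-PBS median. The log2 fold changes were 0.18 ± 0.059 (adjusted p = 0.0090), 0.16 ± 0.059 (adjusted p = 0.021) and 0.16 ± 0.056 (adjusted p = 0.014). The log2 ratio of Clu to Apoe was -0.19 ± 0.16 (SD, n = 17) in ctrl-PBS and differed from it by 0.012, 0.056 and 0.074 in the bigenic groups, none past the threshold (permutation tests, adjusted p = 0.93, 0.61 and 0.29).

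**Figure D3:**
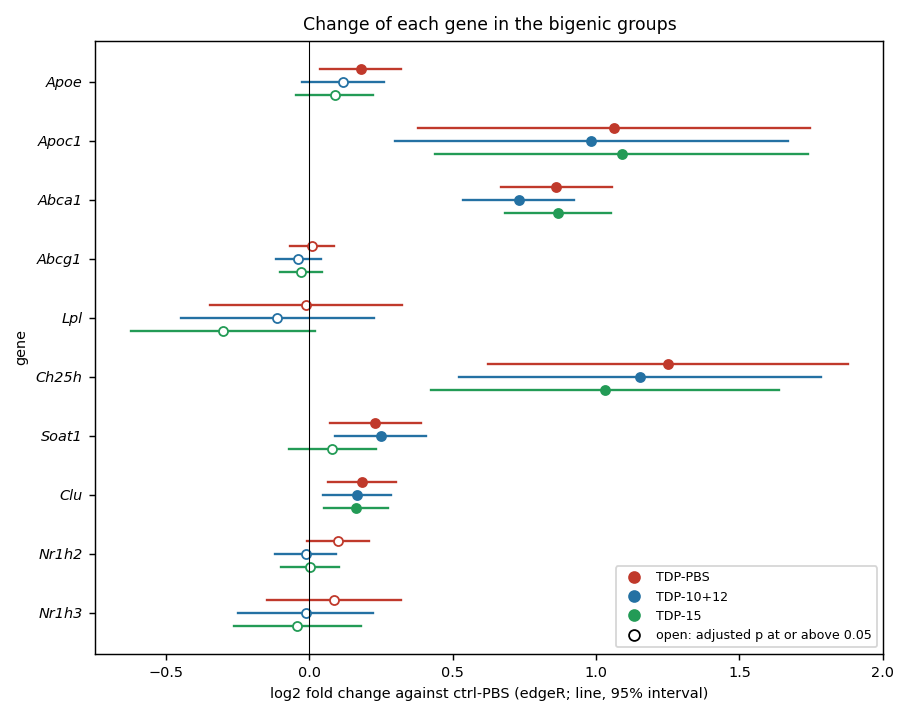
Log2 fold change of each gene against ctrl-PBS in TDP-PBS, TDP-10+12 and TDP-15 (edgeR's quasi-likelihood test), with the 95% interval as a line and an open point where the adjusted p was 0.05 or above. The intervals of Abca1, Apoc1, Ch25h and Clu lie above 0 in all 3 groups, and those of Abcg1 are the narrowest around 0.

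Ch25h (chr19:34473783-34475148, minus strand), which encodes cholesterol 25-hydroxylase, had the largest increase of the 10 genes in TDP-PBS, at a low count. Its counts ran from 1 to 18 in ctrl-PBS and from 10 to 42 in TDP-PBS. In CPM, ctrl-PBS ran from 0.0516 to 0.967 with a median of 0.308, TDP-PBS from 0.477 to 2.08 with a median of 0.687, TDP-10+12 from 0.417 to 1.57 with a median of 0.704, and TDP-15 from 0.199 to 1.90 with a median of 0.561. The ranges overlapped, with 3 mice of each bigenic group above the highest ctrl-PBS mouse and 30 of 32 bigenic mice above the ctrl-PBS median. The fold change was 2.38 in TDP-PBS (95% interval 1.54 to 3.67, adjusted p = 0.00086), 2.22 in TDP-10+12 (1.44 to 3.44, adjusted p = 0.0023) and 2.04 in TDP-15 (1.34 to 3.12, adjusted p = 0.0039). An opposite-strand gene, Gm26902, covers 11.5% of the exon bases of Ch25h, and since the strand setting of the counting is not given in the sources used here, reads in that part cannot be assigned to 1 of the 2 genes.

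The Ch25h window is shown because the gene rose in all 3 bigenic groups and because it held a cAMP response element, TGACGTCA, 54 to 61 bases before the start at 34475148. This palindrome was in 588 of all 32851 windows (1.79%) and in none of the other 8 windows of these genes. It was chosen with the sequence in view and nothing measured here bears on binding to it. Another motif searched, an interferon-type repeat, was in 0 of the 9 windows of these genes and in 1131 of all 32851 (3.44%). The stretch (chr19:34475149-34475269, minus strand) has the element in capitals.
Ch25h promoter: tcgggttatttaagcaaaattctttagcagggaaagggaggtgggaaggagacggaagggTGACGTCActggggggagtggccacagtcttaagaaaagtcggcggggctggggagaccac

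Soat1 (chr1:156428108-156474328, minus strand), the gene of the enzyme that esterifies cholesterol for storage, ran from 8.29 to 15.2 CPM in ctrl-PBS with a median of 13.0. It ran from 12.5 to 19.1 in TDP-PBS with a median of 14.2, from 12.8 to 18.4 in TDP-10+12 with a median of 15.0, and from 10.5 to 15.9 in TDP-15 with a median of 13.0. The ranges overlapped, with 6 of 12 TDP-15 mice above the ctrl-PBS median, while 9 of 10 TDP-PBS mice were above it. Soat1 rose in TDP-PBS (log2 fold change 0.23 ± 0.079, adjusted p = 0.015) and TDP-10+12 (0.25 ± 0.079, adjusted p = 0.0091), and in TDP-15 it was at 0.080 ± 0.075 (adjusted p = 0.40). The difference between TDP-10+12 and TDP-15, 0.17 ± 0.085, did not pass the test (unadjusted p = 0.053, adjusted p = 0.75).

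Lpl (chr8:68880555-68906932, plus strand) encodes lipoprotein lipase, which frees fatty acids from triglyceride-rich particles. It was spread widely within every group, from 10.3 to 23.3 CPM in ctrl-PBS with a median of 16.7, from 9.09 to 28.7 in TDP-PBS with a median of 16.2, from 10.2 to 23.8 in TDP-10+12 with a median of 13.8, and from 7.85 to 20.3 in TDP-15 with a median of 15.3. The coefficient of variation was 23.5% in ctrl-PBS and 36.5% in TDP-PBS. The groups overlapped, and the log2 differences from ctrl-PBS were -0.012 in TDP-PBS, -0.11 in TDP-10+12 and -0.30 in TDP-15 (adjusted p = 0.96, 0.63 and 0.12). In TDP-15 the 95% interval of the fold change was 0.650 to 1.01.

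The receptor genes did not pass the test in any bigenic group. Nr1h2 (chr7:44549616-44553968, minus strand), which encodes the widely expressed LXR-beta, averaged 68.4 ± 7.67 CPM (SD) for ctrl-PBS, 73.3 ± 5.40 for TDP-PBS, 67.8 ± 4.12 for TDP-10+12 and 68.5 ± 6.63 for TDP-15. No bigenic mouse exceeded the highest ctrl-PBS mouse. The log2 difference in TDP-PBS was 0.10 ± 0.053 (adjusted p = 0.13), and without mouse 99 of ctrl-PBS it passed the test at 0.13 (adjusted p = 0.044). Nr1h3 (chr2:91184061-91202829, minus strand), which encodes LXR-alpha, was far lower, at 3.05 ± 0.62 CPM in ctrl-PBS, 3.24 ± 0.74 in TDP-PBS, 3.02 ± 0.52 in TDP-10+12 and 2.96 ± 0.60 in TDP-15. A neighbouring gene, Gm13783, shares 34 bases (1.35%) of its exons on the same strand. The log2 differences of Nr1h3 were 0.085, -0.013 and -0.042 (adjusted p = 0.58, 0.94 and 0.79). The log2 ratio of Nr1h3 to Nr1h2 was -4.46 ± 0.30 (SD, n = 17) in ctrl-PBS and differed from it by at most 0.045 in either direction (permutation tests, adjusted p = 0.93, 0.98 and 0.90 for TDP-PBS, TDP-10+12 and TDP-15).

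Between the bigenic groups, which ask whether immunization moved these genes, 0 of the 10 genes passed edgeR's test in any of the 3 comparisons, where 0% of all genes were called. At an unadjusted p under 0.05 there were 0 of 10 as well in that fit, and DESeq2 and limma-voom also called 0. Of all 18220 tested genes, 953 were under that p in edgeR for TDP-10+12 against TDP-PBS. There were 552 for TDP-15 against TDP-PBS and 1244 for TDP-10+12 against TDP-15. In other fits Soat1 fell below an unadjusted 0.05 for TDP-10+12 against TDP-15 (p = 0.049 in DESeq2), and Nr1h2 did so for TDP-10+12 against TDP-PBS when only those groups were fitted (p = 0.022). The log2 difference of Abca1 was 0.0062 for TDP-15 against TDP-PBS (95% interval -0.20 to 0.21) and -0.13 for TDP-10+12 against TDP-PBS (-0.35 to 0.087). For Apoe these were -0.090 (-0.24 to 0.063) and -0.062 (-0.22 to 0.098). The intervals of the 2 lowest genes were wide, at -0.67 to 0.72 for Apoc1 and -0.86 to 0.42 for Ch25h in TDP-15 against TDP-PBS.

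With sex and group in 1 model, 0 of the 10 genes differed between females and males in edgeR, where 0.0933% of all genes did. DESeq2 and limma-voom also called 0, and in edgeR only Soat1 had an unadjusted p under 0.05 (female against male 0.14 on the log2 scale, p = 0.013, adjusted p = 1.0). In limma-voom Abca1 also had one (0.15, p = 0.033, adjusted p = 0.85). Soat1 in ctrl-PBS was 13.3 ± 1.23 CPM in females (n = 10) and 11.7 ± 2.35 in males (n = 7). In the 27 PBS mice, the effect of genotype did not differ by sex for any of the 10 genes in edgeR, DESeq2 or limma-voom, as for 0% of all 17363 genes tested there. Ch25h alone had an unadjusted p under 0.05 (0.0094, adjusted p = 0.74). It was 0.262 CPM in ctrl-PBS females and 0.514 in males, against 1.07 in TDP-PBS females (n = 4) and 0.751 in males (n = 6).

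Within groups, 4 of 45 pairs of the genes were correlated over the 49 mice after group means were removed (permutation within groups, Pearson's r, adjusted over 45 pairs), and all 4 involved Clu. Clu went with Apoe (r = 0.65, p = 3e-05, adjusted p = 0.0014, rho = 0.58, p = 7e-05, adjusted p = 0.0032, r = 0.62 without the 2 mice farthest from the median of Apoe). Clu also went with Nr1h2 (r = 0.49, p = 0.00029, adjusted p = 0.0062, rho = 0.44, p = 0.0024, adjusted p = 0.035, r = 0.51 without 2 mice). Clu was lower where Lpl was higher (r = -0.51, p = 0.00041, adjusted p = 0.0062, rho = -0.48, p = 0.0010, adjusted p = 0.023, r = -0.41 without 2 mice). Clu and Abca1, a pair singled out after its value was seen, had r = -0.47 (permutation p = 0.0018, adjusted p = 0.020, r = -0.44 without 2 mice) and rho = -0.41 (p = 0.0071), which did not pass when adjusted (0.077).

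Apoe and its chromosomal neighbour Apoc1 had r = 0.33 and rho = 0.37 (permutation p = 0.015 and 0.0085, adjusted p = 0.12 and 0.077, r = 0.32 without 2 mice). Abca1 and Abcg1 had r = 0.24 and rho = 0.27 (permutation p = 0.083 and 0.061, adjusted p = 0.23 and 0.21, r = 0.25 without 2 mice). The receptor genes Nr1h2 and Nr1h3 had r = 0.26 and rho = 0.29 (permutation p = 0.088 and 0.048, adjusted p = 0.23 and 0.18, r = 0.31 without 2 mice). Apoc1 and Nr1h3 had r = 0.33 and rho = 0.33 (permutation p = 0.023 and 0.024, adjusted p = 0.15 and 0.13, r = 0.35 without 2 mice). None of these 4 pairs passed the threshold. In the 32 bigenic mice alone, Apoe and Clu kept r = 0.76 (permutation p = 4e-05, adjusted p = 0.0018) and were the only pair to pass, and in the 17 ctrl-PBS mice alone 0 pairs passed, with r = 0.38 for Apoe and Clu (p = 0.13).

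**Figure D4:**
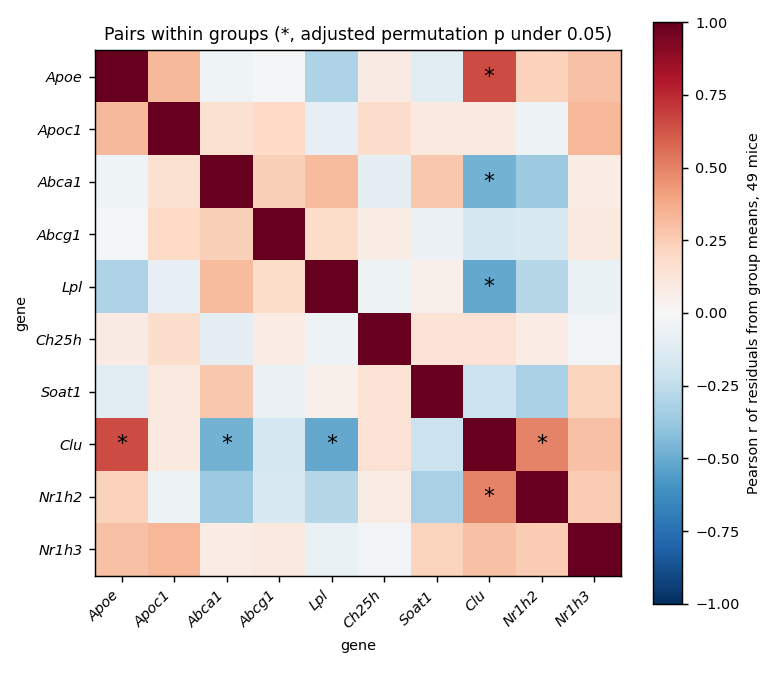
Pearson's r for each pair of the 10 genes over 49 mice, from log2 CPM after subtraction of each group's mean, on a scale from -1 (blue) to 1 (red). Asterisks mark the 4 pairs with an adjusted permutation p under 0.05, all in the row and column of Clu.

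The genes whose pattern over the 49 mice was most like each of the 10, by Pearson's r of the same residuals, are given as a description. For Apoe they were Tsen34 (0.76), Ptgds (0.73) and Gsta4 (0.69), and for Clu they were Aldoc (0.81), Vip (0.72) and Oplah (0.71). Abca1 was most like Sgpl1 (0.67), Kdm3a (0.65) and Hvcn1 (0.63), and Abcg1 like Pik3ip1 (0.58), Zkscan14 (0.57) and Lat (0.53). Apoc1 was most like Hat1 (0.55), E2f5 (0.54) and Mgst1 (0.52), and Ch25h like Chst2 (0.59), Ms4a6d (0.57) and Adm (0.55). For Soat1 the genes were Tmem33 (0.72), Mlec (0.70) and Lrch3 (0.70), and for Lpl they were Plvap (0.65), 4833415N18Rik (0.65) and Ankdd1a (0.64). Genes like Nr1h2 included Sgta (0.70) and Rell2 (0.69), and Nr1h3 was most like Nupr1 (0.68), Smox (0.66) and Tex261 (0.65). The median size of r over all tested genes was 0.11 to 0.18 for these 10 genes, and genes within a mouse share its library.

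A list of 52 other genes of lipid transport set these values in context, of which 42 were tested. In TDP-PBS 14 rose and 7 fell, in TDP-10+12 11 rose and 10 fell, and in TDP-15 16 rose and 9 fell. The changed genes were thus 21, 21 and 25 of 42, where 43.5%, 40.8% and 46.9% of all tested genes changed. Their median log2 fold changes were 0.058, 0.067 and 0.026. Between the bigenic groups 0 of the 42 passed in edgeR, DESeq2 or limma-voom, with 1, 1 and 5 at an unadjusted p under 0.05 for TDP-10+12 against TDP-PBS, TDP-15 against TDP-PBS and TDP-10+12 against TDP-15. Of all 18220 tested genes, 953, 552 and 1244 had an unadjusted p under 0.05 in edgeR in the same comparisons. The 10 genes not tested, Apoa2, Apob, Apoc2, Apoc4, Apoh, Apom, Gpihbp1, Lipc, Msr1 and Soat2, had at most 32 counts in any mouse.

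Of the other apolipoproteins, 4 of 10 were tested. Of these 4, 1 rose (Apod) and 0 fell in each bigenic group. Over all genes, 21.9%, 20.8% and 23.6% were higher in TDP-PBS, TDP-10+12 and TDP-15. Apod, which encodes a lipocalin that binds small lipids, averaged 154 ± 20.6 CPM (SD) for ctrl-PBS, 362 ± 144 for TDP-PBS, 302 ± 58.6 for TDP-10+12 and 393 ± 137 for TDP-15. Its log2 fold change in TDP-PBS was 1.24 ± 0.14 (adjusted p = 5.62e-10), and its values in all 10 TDP-PBS mice were higher than any in ctrl-PBS. Apoa1, Apol8 and Apold1 did not pass in any group.

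Of the transporters and sterol carriers, 7 of 9 were higher in TDP-PBS, 3 of 9 in TDP-10+12 and 7 of 9 in TDP-15, and 0 were lower, where 21.9%, 20.8% and 23.6% of all genes were higher. Abca5, a lysosomal family member, was at a log2 fold change of 0.50 ± 0.069 in TDP-PBS (adjusted p = 3.24e-08), rising from 27.9 ± 3.70 to 39.6 ± 7.21 CPM. Npc2, which hands cholesterol to NPC1 in the lysosome, was at 0.36 ± 0.064 (adjusted p = 5.91e-06), and Abca3 at 0.21 ± 0.047 (adjusted p = 0.00020). Npc1, Abca2, Abca7 and Abcg4 rose by 0.14 to 0.18 in TDP-PBS.

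Of the lipoprotein enzymes and partners, 0 of 5 tested passed in TDP-PBS or TDP-10+12 in edgeR, where 43.5% and 40.8% of all genes changed. Pltp, which transfers phospholipid between particles, had the smallest p, with a log2 difference of -0.17 ± 0.080 in TDP-PBS (unadjusted p = 0.037, adjusted p = 0.078). It fell in TDP-15 (-0.27 ± 0.076, adjusted p = 0.0023). In TDP-PBS it passed when sex was a covariate (adjusted p = 0.049).

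Among genes of sterol esters and oxysterols, 1 of 6 tested rose and 2 fell in every bigenic group. Of all genes, 20.8% to 23.6% were higher and 20% to 23.2% lower in these groups. Plin2, which coats lipid droplets, rose by 0.64 ± 0.11 on the log2 scale in TDP-PBS (adjusted p = 5.33e-06), from 3.87 ± 0.84 to 6.02 ± 0.85 CPM. Nceh1, which hydrolyses cholesterol esters, was at -0.42 ± 0.040 (adjusted p = 1.16e-12) and all 32 bigenic mice lay below every ctrl-PBS mouse. Cyp46a1, the neuronal enzyme that makes 24-hydroxycholesterol, was at -0.40 ± 0.060 (adjusted p = 2.16e-07). Of the 6 neuron markers, 3 fell in the same groups, and Rbfox3, Slc17a7 and Gad2 did not pass the test. A link between these markers and Cyp46a1 was not tested.

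LXR partners and LXR-induced genes numbered 4 of 11 higher and 3 lower in TDP-PBS, 4 higher and 6 lower in TDP-10+12, and 5 higher and 4 lower in TDP-15, where 21.9%, 20.8% and 23.6% of all genes were higher and 21.6%, 20% and 23.2% lower. Rxrg, a retinoid X receptor gene, was at -0.55 ± 0.20 in TDP-PBS (adjusted p = 0.025). Scd1 and Scd2, stearoyl-CoA desaturase genes, were both at -0.30 (adjusted p = 0.00049 and 9.34e-08). Srebf1, Arl4c, Ncor1 and Smpdl3a rose by 0.13 to 0.24 in TDP-PBS.

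Of the lipoprotein receptors, 1 of 7 tested rose and 2 fell in TDP-PBS, and 2 rose and 2 fell in each immunized group. Of all genes, 21.9%, 20.8% and 23.6% were higher in TDP-PBS, TDP-10+12 and TDP-15, and 21.6%, 20% and 23.2% were lower. Trem2, a microglial receptor that binds lipids and apolipoproteins, was at 0.88 ± 0.13 in TDP-PBS (adjusted p = 1.50e-07), from 17.9 ± 2.49 to 33.0 ± 7.81 CPM, beside the microglia marker sums given above. Sorl1, a sorting receptor for lipoproteins and the amyloid precursor, was at -0.40 ± 0.070 (adjusted p = 4.46e-06).

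**Figure D5:**
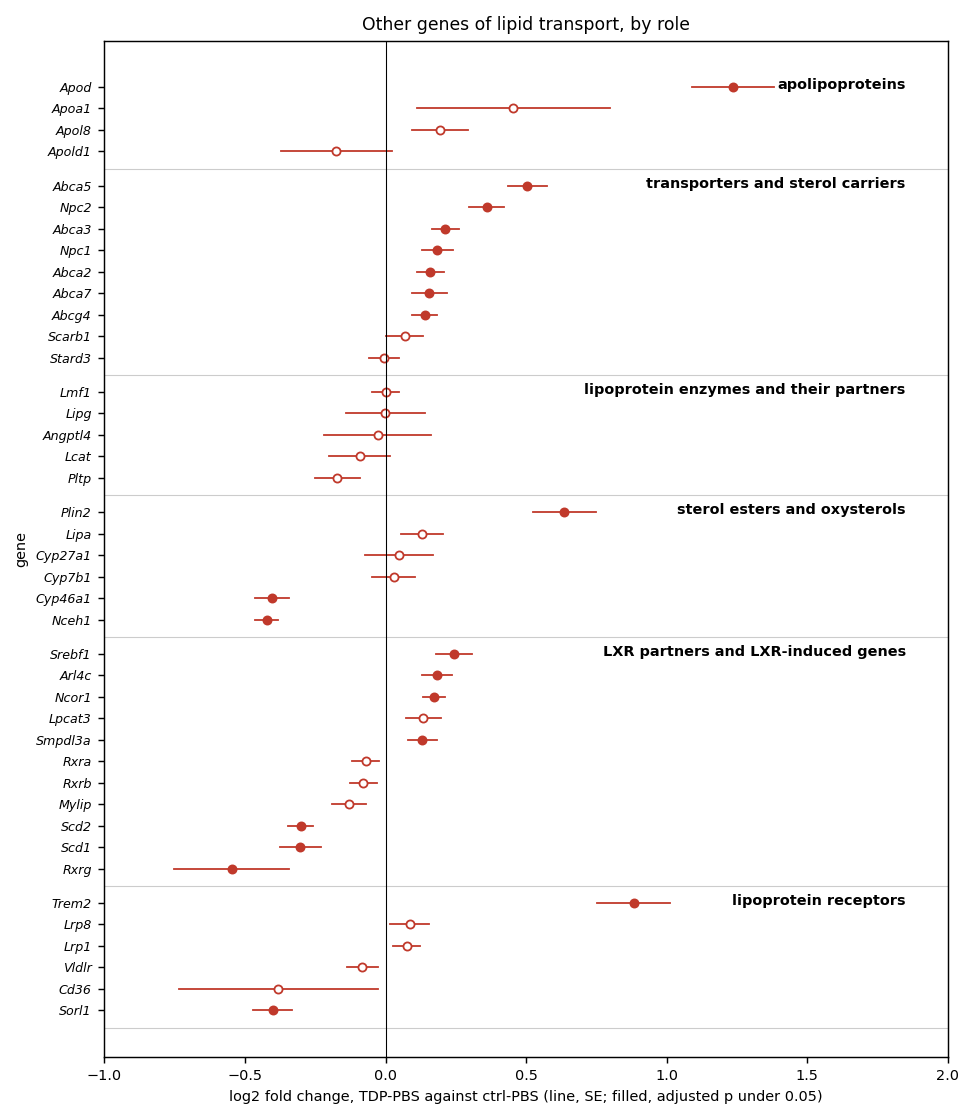
Log2 fold change in TDP-PBS against ctrl-PBS of 41 tested genes of the wider list, ordered within role groups, with the SE as a line and filled points for an adjusted p under 0.05. Apod and Trem2 lie farthest to the right and Rxrg farthest to the left, and 7 of the 9 transporters and carriers are filled and right of 0.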

How the data were processed

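Neocortical RNA of 49 mice was sequenced as 100 bp paired-end reads (about 30 mg of tissue, 200 ng of RNA), and the authors deposited unnormalized read counts for each gene in each mouse. Reads were aligned to GRCm38.p6 according to the study, and the submitters' processing notes name HISAT, HISAT2, Bowtie2, Bowtie and RSEM with the build mm10, without roles. The annotation and strand setting are not given in the sources used here. Groups and sexes come from the labels. Libraries of the same group were checked for copies, and none was found (smallest chi-squared per degree of freedom 7.24 over 292 pairs).

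Counts were filtered with filterByExpr (at least 10 counts, 15 in total). TMM factors were applied, and all 49 mice entered 1 fit by edgeR's quasi-likelihood test (edgeR 4.0.16, R 4.3.3), with Benjamini-Hochberg adjustment over all genes tested and a threshold of 0.05. SEs were derived from the F statistic, and 95% intervals from them with 45 degrees of freedom. CPM used the TMM factors. Log2 CPM for ratios and pairs used a prior count of 2, and permutation tests were two-sided with 100000 resamples (scipy 1.17.1, Python 3.11.15). Alternatives were DESeq2 1.42.0, limma-voom 3.58.1 with quality weights, other scalings, other filters, sex as a covariate and 2-group fits. Leave-one-out fits, fits without the 4 mice over 1000 CPM in choroid plexus markers, and the permutation test of Apoe were added after seeing the data. The fitting steps were tested on simulated data. Positions and promoters are from RefSeq (GRCm38.p6), which listed all 10 genes, and exon lengths from GENCODE M21.

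The genes, the wider list, the ratios and the markers were chosen with earlier results of these data known. All 10 genes are named. Of the wider list, up to 3 genes per role group with an adjusted p under 0.05 and the largest change in TDP-PBS are named with full values, or otherwise the gene with the smallest p. Others were named after their values were seen. The 3 most similar genes are given for each of the 10. A few genes that these rules would name are not reported here, but enter the counts and sums. For pairs, the 3 highest r, the lowest r and 3 preset pairs are given.

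Marker sums not printed in the results above were those of oligodendrocytes, endothelium, meninges and fibroblasts, blood-derived myeloid cells, T cells and red blood cells.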

Additional observations from a re-analysis of the deposited data

Results flagged for a closer look

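Each of the 10 genes and each of the 4 ratios was examined for a mouse far from the others in the 2 groups of 10 mice, 28 groups of values in all. Chance flags about 1 in 20 such groups, and 2 were flagged. Apoe in mouse 301 of TDP-10+12 was 706 CPM, below the other 9 mice by 0.492 of the group's range. Apoc1 in mouse 26 of TDP-PBS was 1.88 CPM, above the other 9 mice by 0.58 of the range, and this library also had 1274 CPM of choroid plexus markers.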

How the results depend on the processing

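Changes of Abca1, Ch25h and Clu against ctrl-PBS in each bigenic group, and of Soat1 in TDP-PBS and TDP-10+12, kept their direction and stayed past the threshold in every alternative that tested them, each mouse left out included. The calls of Apoe in TDP-PBS and of Apoc1 in TDP-PBS and TDP-10+12 did not, and the values are given in the report. With no filter Apoe in TDP-PBS was at 0.18 (adjusted p = 0.058), and with limma-voom at 0.13 (adjusted p = 0.095). A minimum of 10 counts in every mouse left 8 of the 10 genes, without Apoc1 and Ch25h. The count of changed genes was then 3 in TDP-10+12 and 2 in TDP-15, by the construction of that filter. Of all 14742 genes that passed it, 6873 changed in TDP-10+12 and 7786 in TDP-15. Leaving out each of the 49 mice gave 4 to 7 changed genes in TDP-PBS, 5 to 6 in TDP-10+12, 4 to 4 in TDP-15 and 0 between bigenic groups. The pairs past the threshold numbered 1 in the 32 bigenic mice and 0 in the 17 ctrl-PBS mice, with fewer samples than the 49. All 6 ratio calls held under each alternative. For TDP-10+12 against TDP-15, DESeq2 gave no adjusted p for Apoc1 and Ch25h. No paired analysis was possible because each mouse belongs to 1 group and animal numbers are not shared. Depth limits Apoc1 and Ch25h, with a median near 0.3 CPM in ctrl-PBS against a floor of 0.139 to 0.165 CPM.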

Other observations

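The oligodendrocyte sum was 3277 to 6034 CPM in ctrl-PBS and 2801 to 5701 over the bigenic groups, with 0 of 5 markers changed in any. The endothelium sum was 99.3 to 152 CPM in ctrl-PBS and 88.4 to 145 in TDP-PBS, with 2 of 4 markers lower in TDP-15 and 0 in the other groups. Meningeal and fibroblast markers summed to 19.2 to 47.8 CPM in ctrl-PBS, 27.2 to 78.2 in TDP-PBS, 35.4 to 59.9 in TDP-10+12 and 25.4 to 57.6 in TDP-15, with 1, 2 and 0 of 4 markers higher and with 2, 6 and 1 mice above all ctrl-PBS mice. Markers of blood-derived myeloid cells reached a sum of 50.8 CPM in 1 ctrl-PBS mouse, 20.4 in TDP-PBS, 8.1 in TDP-10+12 and 10.6 in TDP-15. Of the 3 tested, 0, 1 and 2 were lower in these bigenic groups, and 0 were higher. The sum of T cell markers stayed at or below 0.812 CPM, with 3 of 4 markers among the counted genes and 0 tested. The sum of red blood cell markers lay between 14.8 and 342 CPM, with 0 of 3 markers changed.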
